A study of Mus musculus with 6 samples.

Results

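The urea cycle and the enzymes that break down tyrosine, tryptophan, proline, histidine, glycine, sulfur amino acids, branched-chain amino acids and lysine were examined in liver RNA of NZB mice against SM mice. Of 35 listed genes, 32 were measured through a probe set paired with them alone, by 47 of the 45037 probe sets on the arrays. The members Gls2, Amt and Mut are not analysed here. The groups were 3 mice of the inbred strain NZB/BinJ (NZB), a strain known for autoimmune anaemia, and 3 mice of the inbred strain SM/J (SM), a strain once selected for small body size. All are labelled female, and the array of SM replicate 2 goes against that label, as given below. All 6 mice were untreated, 8 weeks old and on chow since weaning at 3 weeks. They went 4 hours without food before dissection, their livers were perfused with 50 mL of sterile buffered saline, and 1 array was run per mouse.

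Amino acids that are not used for protein lose their nitrogen in the liver. Transaminases and dehydrogenases release it as ammonia or pass it to aspartate, and the urea cycle, split between mitochondria and cytosol, turns both into urea. The remaining carbon skeletons become glucose, ketone bodies or fuel for the citric acid cycle. In rodent liver many of these genes are known to be induced by glucagon and glucocorticoids, and the urea cycle lies mainly in hepatocytes near the portal vein.

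The arrays differed little as wholes. Their medians lay between 6.60 and 6.66 on the log2 scale, and their standard deviations between 1.93 and 1.95 in NZB and between 1.96 and 1.99 in SM. Of 7 hepatocyte markers, 0 passed the test described below, and their summed linear level was 153259 to 159895 in NZB and 150561 to 153272 in SM. The array of SM replicate 2 read 7.32 for Xist, the RNA of the inactive X chromosome, while the other 5 arrays read 12.6 to 12.9. This low reading goes against the label of a female mouse, so the counts of calls are also given without that array. Markers of some other cells were higher in NZB. Of 4 measured B and plasma cell markers 3 were higher (summed linear level 6187 to 12759 in NZB and 499 to 571 in SM), as were 3 of 5 Kupffer cell markers (4896 to 5915 in NZB and 3634 to 3992 in SM), and the part of these cells in the results below was not tested. In whole liver, fewer cells of a type and less RNA per cell cannot be told apart.

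Most of the strain differences in this pathway ran toward lower levels in NZB, and all were smaller than 2-fold. A gene was called higher or lower where limma, fitted over all 18193 genes, gave a Benjamini-Hochberg adjusted p under 0.05. In NZB livers 10 of the 32 members were lower and 1 was higher, and 21 did not pass. Over all genes tested, 21.0% were called, 12.6% as lower and 8.47% as higher in NZB, against 31.3% and 3.13% of the members. The members are bright, however, and bright genes were called more often: among the 2169 genes with a mean of at least 10, a level chosen after the data were seen, 24.8% were lower and 11.99% were higher. The members' share of lower calls is near that of such bright genes. The lower members were Prodh, Tat, Aass, Asl, Mccc1, Bckdhb, Tdo2, Arg1, Cdo1 and Bckdha, and the higher one was Kmo.

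The median difference of the members was -0.12 on the log2 scale, beside 0.02 over all genes and -0.07 over the bright ones. In 24 of the 32 members the NZB mean was below the SM mean, where this held for 44.6% of all genes. The 3 arrays of one strain lay wholly apart from those of the other for 18 members (14 lower and 4 higher in NZB). That is 56.3% of them, where the share over all genes was 39.4% (19.7% lower and 19.6% higher). The share among the bright genes is not given here. After quantile normalization 10 members were lower and 3 were higher, beside 9.76% and 8.82% of all genes. The lower members numbered 5 without SM replicate 2 and 6 without NZB replicate 1, where 8.30% and 10.4% of all genes were lower. The higher ones numbered 3 without SM replicate 1 and 0 without NZB replicate 3, where 7.16% and 4.96% of all genes were higher.

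**Figure D1:**
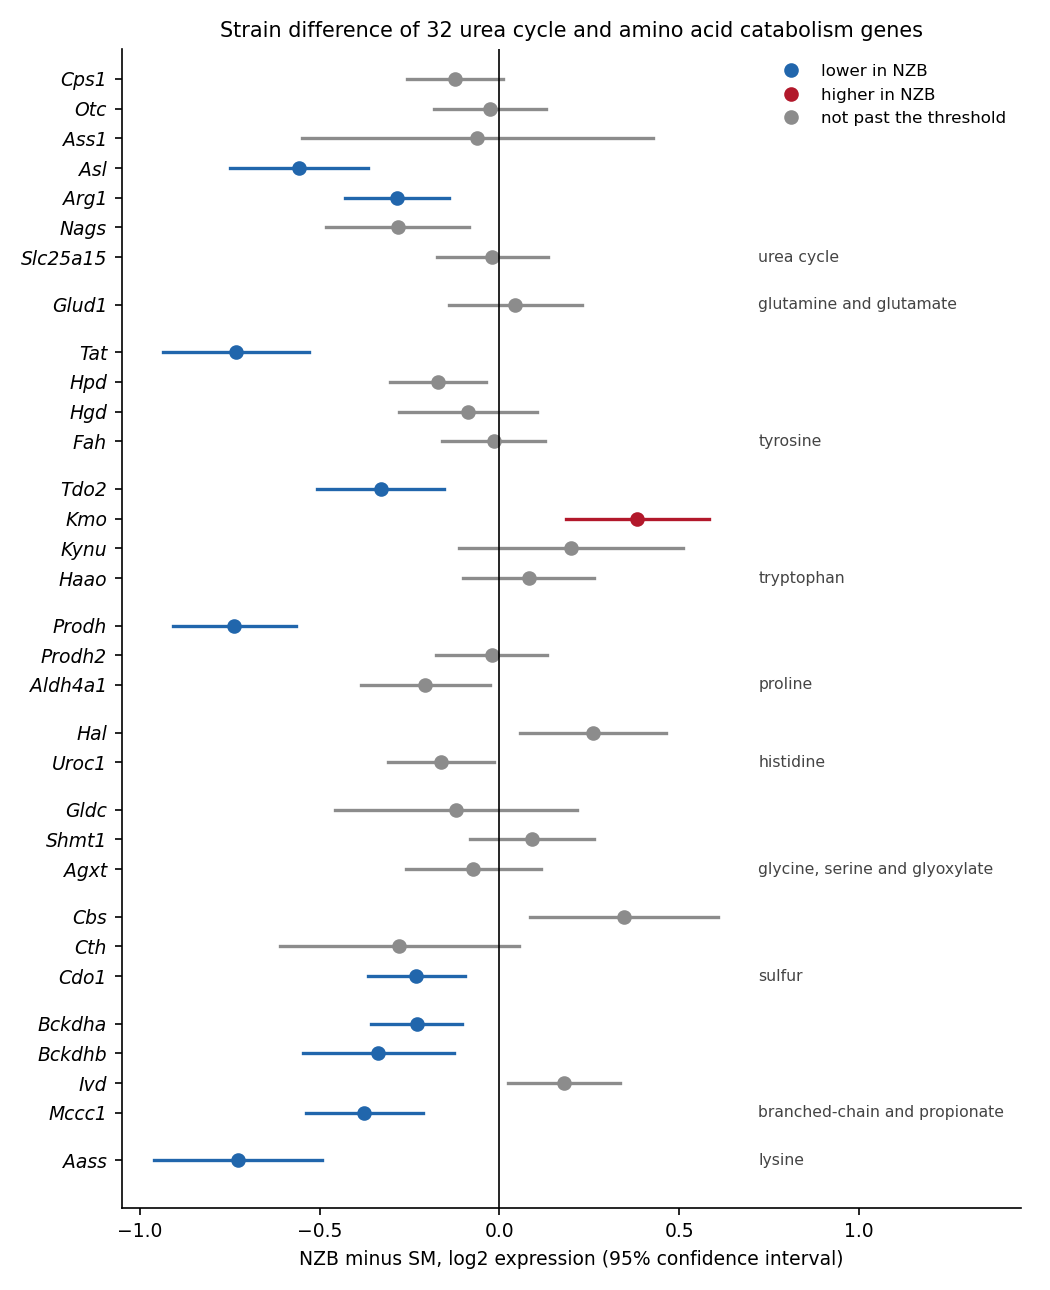
NZB minus SM difference in log2 expression (x axis) for the 32 measured genes, grouped by pathway down the page, with points for the limma estimate and lines for its 95% confidence interval. The 10 genes lower in NZB lie left of 0, with Prodh, Tat and Aass near -0.73, and Kmo at 0.38 is the only gene called higher.

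The promoter windows of the lower members with the smallest p among those in the RefSeq table, Prodh, Tat and Aass, are shown because these genes differed most. Each holds 250 bases before the annotated start and 50 after it, in the C57BL/6J reference assembly GRCm38.p6, which is neither of the strains compared. The windows are chr16:18089141-18089440 (minus strand) for Prodh, chr8:109990186-109990485 (plus strand) for Tat and chr6:23132937-23133236 (minus strand) for Aass. They are written 5′ to 3′ along the gene, and capitals mark CCAAT or its reverse complement.
Prodh: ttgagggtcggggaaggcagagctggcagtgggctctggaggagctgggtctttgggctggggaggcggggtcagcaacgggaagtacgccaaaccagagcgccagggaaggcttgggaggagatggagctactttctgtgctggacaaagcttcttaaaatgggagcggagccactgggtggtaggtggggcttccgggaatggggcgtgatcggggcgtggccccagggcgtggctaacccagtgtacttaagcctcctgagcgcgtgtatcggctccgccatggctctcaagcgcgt
Tat: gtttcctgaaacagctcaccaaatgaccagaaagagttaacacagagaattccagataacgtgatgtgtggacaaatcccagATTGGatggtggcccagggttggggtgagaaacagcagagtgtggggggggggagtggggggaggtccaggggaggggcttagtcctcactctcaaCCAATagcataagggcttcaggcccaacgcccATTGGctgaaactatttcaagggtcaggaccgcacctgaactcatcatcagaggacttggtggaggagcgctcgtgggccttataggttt
Aass: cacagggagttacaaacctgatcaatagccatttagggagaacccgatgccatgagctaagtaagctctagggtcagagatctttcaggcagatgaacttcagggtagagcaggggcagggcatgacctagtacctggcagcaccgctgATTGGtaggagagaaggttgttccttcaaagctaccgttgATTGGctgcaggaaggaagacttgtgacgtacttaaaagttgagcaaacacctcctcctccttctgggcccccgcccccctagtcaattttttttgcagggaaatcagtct
The Tat window held 3 CCAAT matches, starting 168, 72 and 40 bases before the gene's start, the Aass window held 2, 101 and 61 bases before it, and the Prodh window held 0. CCAAT on either strand occurred in 37.4% of all 32851 windows and in 15 of the 28 windows found for 26 members, 6 of them among the 8 windows of the 7 lower members found. Of the other 6 motifs searched on both strands, the cAMP response element TGACGTCA, the C/EBP palindrome TTGCGCAA, the palindromic glucocorticoid response element and the forkhead motif TGTTTAC were in 0 member windows. They were in 1.79%, 0.183%, 0.00913% and 3.65% of all windows. The TATA box TATAAA was in 3 member windows and 13.6% of all, and the E box CACGTG in 3 and 7.15%. These are matches of letters in a short window and describe no binding.

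In the urea cycle, Asl and Arg1 were lower in NZB and the other 5 members did not pass the test. Of 7 members measured, 2 were lower and 0 were higher, where 12.6% of all genes and 24.8% of the bright ones were lower. The NZB mean was below the SM mean in all 7, and in 44.6% of all genes. The differences of Otc, Ass1 and Slc25a15 each changed sign under 3 of 14 alternatives. Asl encodes argininosuccinate lyase, which splits argininosuccinate into arginine and fumarate. The log2 level of Asl was 11.91, 12.02 and 11.84 in NZB livers, against 12.63, 12.48 and 12.34 in SM livers. All 3 NZB arrays lay below all SM arrays, a difference of -0.56 (SE 0.086, 95% interval -0.75 to -0.36), or 1.47-fold lower in NZB (adjusted p = 0.00206).

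Arg1 encodes liver arginase, which releases urea from arginine. Its level was 13.47, 13.52 and 13.55 in NZB livers, against 13.84, 13.84 and 13.71 in SM livers, again without overlap. The difference for Arg1 was -0.28 (1.22-fold lower, SE 0.064, adjusted p = 0.0132), a call that ended without SM replicate 2 (adjusted p = 0.0566). Nags makes N-acetylglutamate, the activator the cycle needs at its entry. It read 9.83, 9.76 and 10.003 in NZB livers and 10.30, 10.07 and 10.06 in SM livers. The strains were separate, but the difference was just short of the threshold (-0.28, SE 0.089, adjusted p = 0.0502). Nags passed under 5 of 14 alternatives.

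Cps1, the mitochondrial synthetase that captures ammonia as carbamoyl phosphate, averaged 13.85 ± 0.042 in NZB and 13.98 ± 0.0342 in SM (SD, n = 3 each). Its difference was -0.12 (95% interval -0.26 to 0.01, adjusted p = 0.179), and the arrays of the strains did not overlap. Otc, the X-linked transcarbamylase that makes citrulline, differed by -0.03 (95% interval -0.18 to 0.13), and Slc25a15, the mitochondrial ornithine carrier, by -0.02 (95% interval -0.17 to 0.13). Differences of the size these intervals span may have gone uncalled with 3 arrays per strain. In simulated data, 25 of 100 changes of 0.3 log2 units were recovered. That figure cannot be carried over, because apart from these only 100 genes of 18193 were changed there. In the data 3827 genes were called, so the adjusted threshold was easier to pass. The smallest difference of a called member was 0.23 in size. Ass1, which joins citrulline and aspartate, was read by a probe set with scattered values, 8.68, 7.95 and 8.94 in NZB livers against 8.50, 8.82 and 8.43 in SM livers, so its interval was wide (-0.55 to 0.43). A further probe set paired with both Ass1 and Gm5424 was left out. The glutamate dehydrogenase gene Glud1, which releases ammonia from glutamate, differed by 0.04 (95% interval -0.14 to 0.23).

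**Figure D2:**
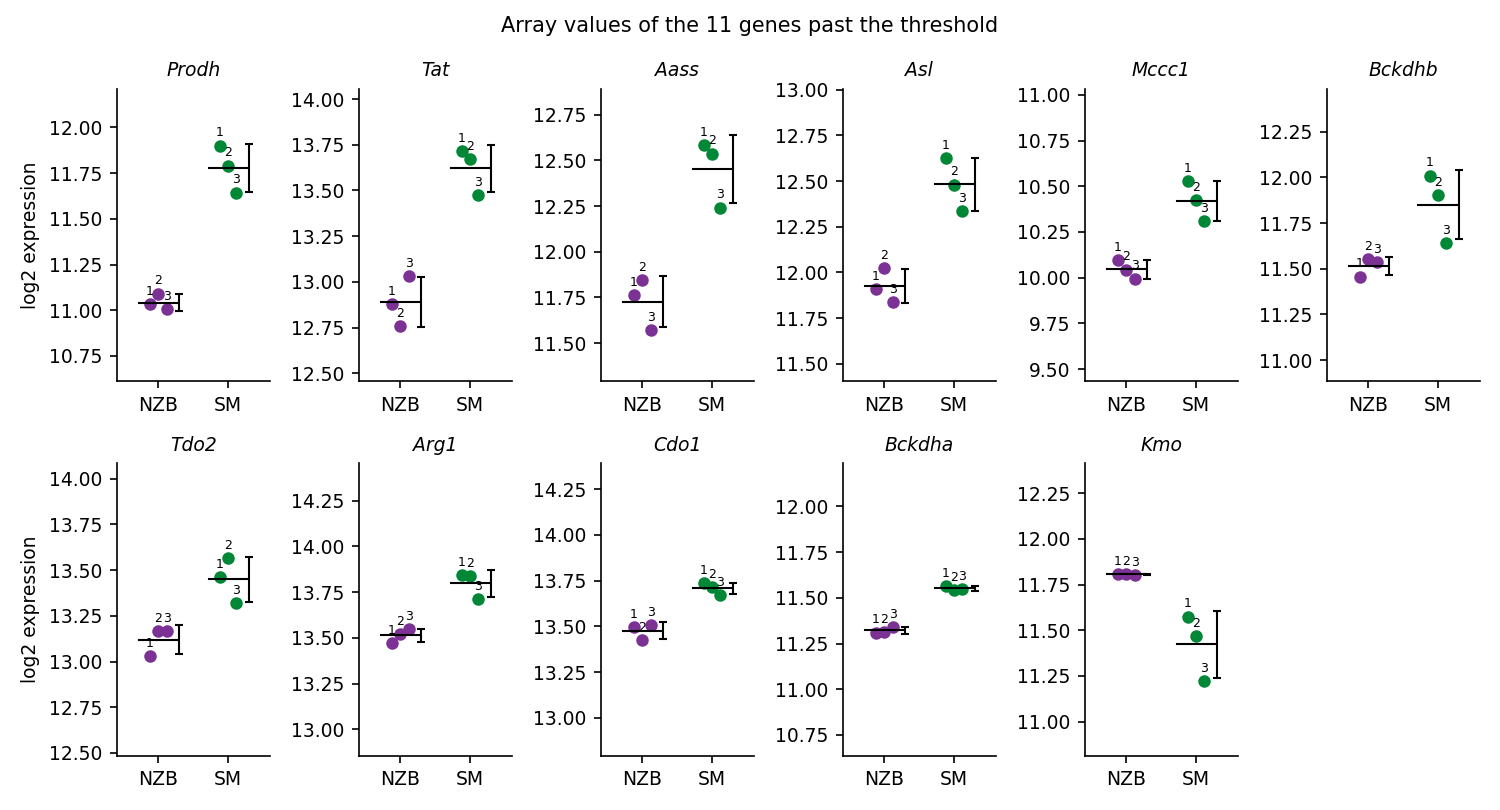
Log2 expression on each array for the 11 genes past the threshold, with the 3 NZB mice left and the 3 SM mice right in each panel. Small digits give the replicate, horizontal lines the mean and error bars the SD, and every panel spans the same range of log2 units around its own centre. In no panel do the strains overlap, and SM replicate 3 is the lowest SM array in 10 of the 11.

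Tyrosine breakdown differed at its first step. Tat, tyrosine aminotransferase, is a textbook target of glucocorticoids in rat and mouse liver. Its level was 12.88, 12.76 and 13.03 in NZB livers, against 13.72, 13.67 and 13.47 in SM livers. The strains did not overlap, and Tat was 1.66-fold lower in NZB (-0.73, SE 0.090, 95% interval -0.93 to -0.53, adjusted p = 0.000625).

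The next enzymes of the tyrosine route did not pass the test. Hpd, which makes homogentisate, averaged 14.20 ± 0.0328 in NZB and 14.37 ± 0.0426 in SM (-0.17, adjusted p = 0.0708). Its arrays did not overlap, and it passed under 5 of 14 alternatives, among them quantile normalization (adjusted p = 0.0172). Hgd, homogentisate dioxygenase, differed by -0.09 (95% interval -0.28 to 0.11). Fah, whose loss in people causes tyrosinaemia, differed by -0.02 (95% interval -0.16 to 0.13).

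Along the kynurenine route of tryptophan, the first enzyme was lower and a later one was higher in NZB. Tdo2, tryptophan dioxygenase, opens the indole ring and sets the pace of the route in liver. It read 13.03, 13.17 and 13.17 in NZB livers, against 13.46, 13.56 and 13.32 in SM livers. The groups were separate and the difference was -0.33, or 1.26-fold (SE 0.078, adjusted p = 0.0166). Its other probe sets differed by -0.38 and -0.32 in the fit over all probe sets (adjusted p = 0.0317 and 0.0570). The call ended without SM replicate 2 (adjusted p = 0.0683) and without NZB replicate 1 (0.0589).

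Kmo, kynurenine 3-monooxygenase, was the only member called higher. It read 11.81, 11.81 and 11.80 in NZB livers, against 11.57, 11.47 and 11.22 in SM livers. Every NZB array was above every SM array, the NZB arrays lay almost on each other, and the difference was 0.38 (SE 0.088, 95% interval 0.18 to 0.58), or 1.30-fold (adjusted p = 0.0144). Without NZB replicate 3 its adjusted p was 0.0502. Kynu, kynureninase, differed by 0.20 (95% interval -0.11 to 0.51) and Haao, which makes quinolinate, by 0.08 (95% interval -0.10 to 0.26), and in both the strains overlapped. Without SM replicate 3 the difference was 0.014 for Kynu and 0.012 for Haao.

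In proline breakdown the mitochondrial enzyme gene Prodh was lower while its relative Prodh2 was level. Prodh encodes proline dehydrogenase, which oxidizes proline in mitochondria. Its level was 11.03, 11.09 and 11.004 in NZB livers, against 11.90, 11.79 and 11.64 in SM livers. The strains lay farther apart than the arrays of either strain, with Prodh 1.67-fold lower in NZB (-0.74, SE 0.076, 95% interval -0.91 to -0.57, adjusted p = 0.000234). Prodh2, which acts on hydroxyproline, averaged 11.12 ± 0.0898 in NZB and 11.15 ± 0.053 in SM (-0.02, 95% interval -0.17 to 0.13). Aldh4a1, the dehydrogenase that completes both routes to glutamate or its hydroxy form, differed by -0.21 (95% interval -0.38 to -0.03, adjusted p = 0.0993). The contrast between Prodh and Prodh2 was not tested.

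Lysine enters its main breakdown route through the bifunctional enzyme encoded by Aass. Aass read 11.76, 11.85 and 11.57 in NZB livers, against 12.58, 12.54 and 12.24 in SM livers. All NZB arrays were lower, and the difference was 1.65-fold (-0.73, SE 0.104, 95% interval -0.96 to -0.49, adjusted p = 0.00139). Prodh, Tat, Aass, Asl and Mccc1 kept their calls in all 14 alternatives run, with differences of -0.83 to -0.29 and adjusted p of 6.34e-05 to 0.0307.

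Branched-chain amino acids lose their carboxyl group in the mitochondrial complex whose decarboxylase subunits come from Bckdha and Bckdhb. Bckdha read 11.31, 11.31 and 11.34 in NZB livers, against 11.57, 11.54 and 11.55 in SM livers. The arrays within a strain were tight, and the difference was -0.23, or 1.17-fold (SE 0.056, adjusted p = 0.0186). Bckdhb read 11.46, 11.55 and 11.54 in NZB livers, against 12.01, 11.90 and 11.64 in SM livers. SM replicate 3 stood close to the NZB arrays here, and the difference was -0.34, or 1.26-fold (SE 0.093, adjusted p = 0.0308). The Bckdha call ended without SM replicate 2 or any NZB array (adjusted p = 0.0506 to 0.0583) and after quantile normalization (0.0686), while its difference stayed at -0.24 to -0.22 with single arrays left out. The Bckdhb call ended without any single array but SM replicate 3 (adjusted p = 0.0643 to 0.106), with differences of -0.44 to -0.26 over all fits that left out an array.

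Mccc1 encodes the biotin-bearing subunit of methylcrotonyl-CoA carboxylase in leucine breakdown. It read 10.09, 10.04 and 9.995 in NZB livers, against 10.53, 10.42 and 10.31 in SM livers. The strains were apart, by -0.38 or 1.30-fold (SE 0.072, adjusted p = 0.00595). A dimmer probe set of Mccc1, of a kind marked for possible cross-hybridization, gave -0.71 (SE 0.071, adjusted p = 0.000327).

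The probe sets of Ivd, the dehydrogenase one step before Mccc1 in leucine breakdown, pointed in opposite directions. The brighter read 11.07, 11.11 and 11.02 in NZB livers and 10.94, 10.95 and 10.78 in SM livers, a difference of 0.18 that did not pass (adjusted p = 0.0971). The dimmer read 9.75, 9.59 and 9.67 in NZB livers and 10.31, 10.17 and 9.91 in SM livers, a difference of -0.46 (SE 0.10, adjusted p = 0.0159 in the fit over all probe sets). Each probe set separated the strains, but not the same way. The gap between them within an array was 1.32, 1.53 and 1.34 in NZB and 0.63, 0.78 and 0.86 in SM, which restates the opposite directions and was not tested. No direction is given for Ivd, and sequence variants under the probes were not analysed here.

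**Figure D3:**
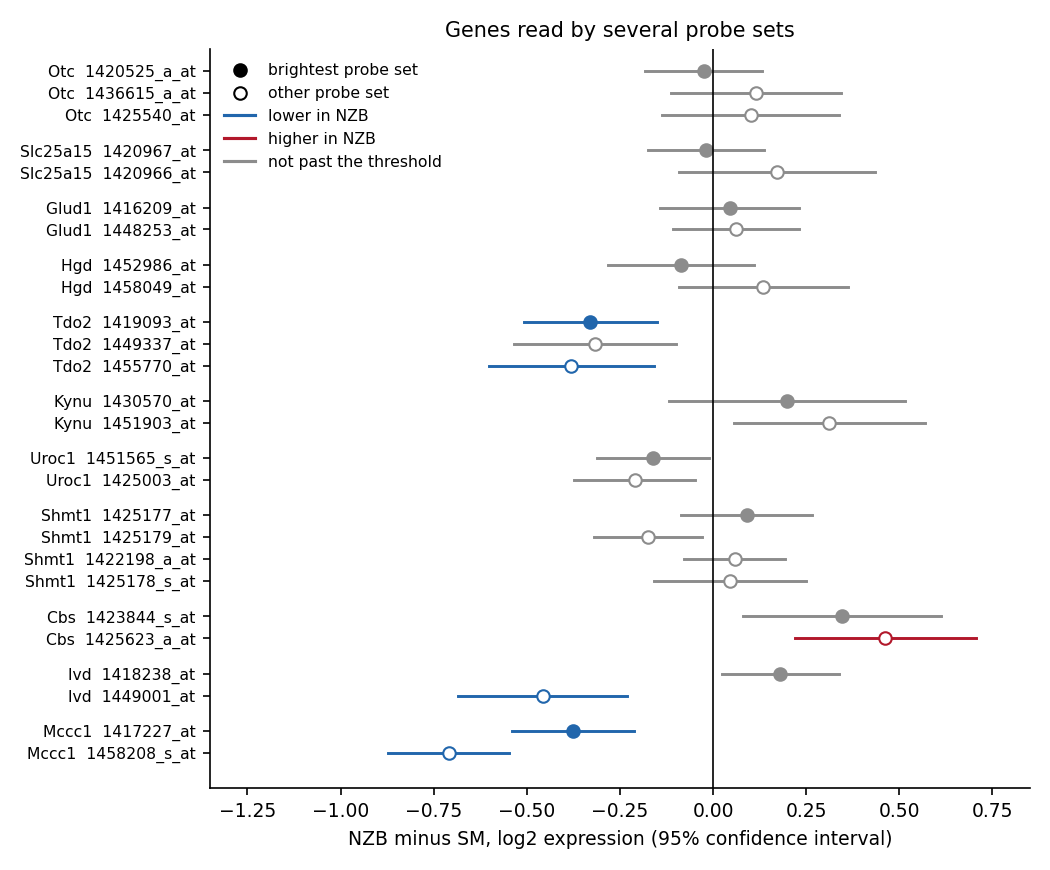
NZB minus SM difference in log2 expression (x axis) for each probe set of the 11 genes read by several, from the fit over all probe sets, with 95% confidence intervals. Filled points are the brightest probe set of a gene and open points the others. The Ivd pair lies on opposite sides of 0, at 0.18 and -0.46, and the Tdo2, Cbs and Mccc1 probe sets lie on 1 side each.

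Of the 3 sulfur amino acid genes, 1 was lower in NZB and the others did not pass the test. Cbs, cystathionine beta-synthase, takes homocysteine toward cysteine. Its brightest probe set is of a kind marked for possible cross-hybridization. It read 12.14, 12.11 and 12.17 in NZB livers, against 12.07, 11.76 and 11.54 in SM livers. This probe set separated the strains but was not past the threshold (0.35, SE 0.116, adjusted p = 0.0632). The other read 11.98, 11.99 and 12.02 in NZB livers, against 11.78, 11.53 and 11.30 in SM livers. It passed over all probe sets (0.46, SE 0.108, adjusted p = 0.0213). In the fit over genes Cbs passed under 5 of the 14 alternatives, with adjusted p from 0.00502 (without SM replicate 1) to 0.163 (without NZB replicate 3) over all of them. With marked probe sets left out, the Cbs difference was 0.46 (adjusted p = 0.0149), and without SM replicate 3 it was 0.22 (adjusted p = 0.128).

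Cth, cystathionine gamma-lyase, which acts next, read 12.62, 12.80 and 12.67 in NZB livers and 13.24, 13.10 and 12.58 in SM livers. SM replicate 3 read below all NZB arrays, and the difference of -0.28 did not pass (adjusted p = 0.218). Without that array the difference was -0.47 (adjusted p = 0.00491), and without SM replicate 1 it was -0.14. Cdo1, cysteine dioxygenase, which starts cysteine breakdown toward taurine, read 13.50, 13.42 and 13.51 in NZB livers, against 13.74, 13.71 and 13.67 in SM livers. The groups did not overlap, and the difference was -0.23, or 1.17-fold (SE 0.059, adjusted p = 0.0232). Its call ended without any single array but SM replicate 3 (adjusted p = 0.0507 to 0.0831).

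Histidine and glycine genes did not pass the test. Hal, histidine ammonia-lyase, read 12.33, 12.53 and 12.34 in NZB livers, against 12.31, 12.06 and 12.04 in SM livers, separate by a narrow margin (0.26, adjusted p = 0.0710). Uroc1, urocanase, the next enzyme, leaned the other way at -0.16 (95% interval -0.31 to -0.01, adjusted p = 0.115). Gldc, the decarboxylase of the glycine cleavage system, averaged 11.02 ± 0.0457 in NZB and 11.15 ± 0.364 in SM (-0.12, 95% interval -0.46 to 0.22). Shmt1, which interconverts serine and glycine in the cytosol, differed by 0.09 (95% interval -0.08 to 0.26), and its 4 probe sets ranged from -0.17 to 0.09. Agxt, the aminotransferase that removes glyoxylate in peroxisomes, differed by -0.07 (95% interval -0.26 to 0.12).

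Over all probe sets of the members, 13 of 47 were lower in NZB and 2 were higher, where 8.69% and 6.09% of all 45037 probe sets were. Bright genes were called more often than all genes, as given above, and the share among bright probe sets is not given here. Of 11 genes with several probe sets, 6 had all differences on 1 side of 0 and 5 did not, and 0 had calls in both directions. The 5 were Otc, Slc25a15, Hgd, Shmt1 and Ivd, and apart from Ivd none of their probe sets passed. The lower probe sets numbered 8, 6, 7, 7 and 6 and the higher ones 4, 0, 0, 0 and 0 without SM replicate 1, SM replicate 2, NZB replicate 1, NZB replicate 2 and NZB replicate 3. In the same order, 10.1%, 8.30%, 10.4%, 9.15% and 8.13% of all genes were lower and 7.16%, 4.77%, 6.33%, 5.61% and 4.96% were higher. The shares over all probe sets in those fits are not given here.

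The members varied together between SM mice. SM replicate 3 was the lowest SM array for 29 of the 32 genes, and SM replicate 1 was the highest for 26. Over all 18193 genes this held for 6550 and 7230 genes, and over the bright genes for 54.4% and 54.6%. Over the 71 other amino acid genes described below it held for 69.0% and 63.4%, and over the 7 hepatocyte markers for 71.4% and 28.6%. The median deviation of the members from their strain mean was 0.10, 0.02 and -0.12 in SM replicates 1, 2 and 3, beside -0.01, 0.02 and -0.003 in NZB replicates 1, 2 and 3. The median within-strain SD of the members was 0.0534 in NZB and 0.129 in SM, where over all genes it was 0.0750 and 0.0831. The SM spread was the larger for 23 of the 32 members, including Gldc, Cth, Kynu and Cbs. Without SM replicate 3, 12 members were lower and 1 was higher, beside 13.3% and 7.93% of all genes. The members' median difference was then -0.18.

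**Figure D4:**
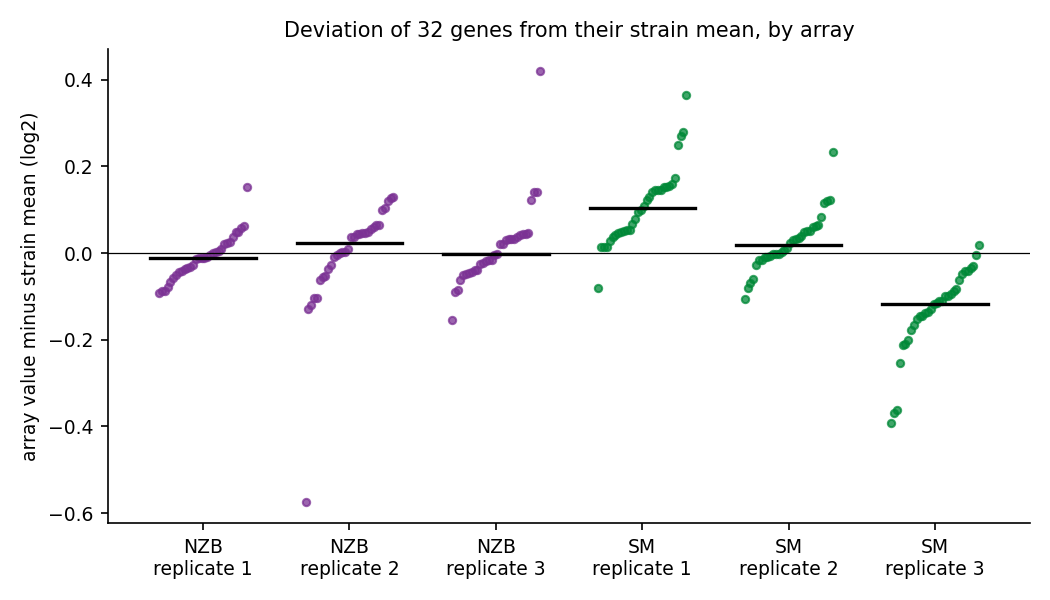
Deviation of each of the 32 genes from its strain mean (y axis, log2 units) on each array, with the 3 NZB arrays left and the 3 SM arrays right. Each point is a gene, points are sorted within an array, and bars mark the median. The medians of the NZB arrays lie between -0.01 and 0.02, while those of SM replicates 1 and 3 lie at 0.10 and -0.12.

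Of 71 other genes of amino acid handling measured in 5 lists, 26 were lower in NZB, 6 were higher and 39 did not pass. These are 36.6% lower and 8.45% higher, beside 12.6% and 8.47% over all genes and 24.8% and 11.99% over the bright genes, where lower calls also outnumbered higher ones. Of 15 genes of nitrogen supply and transport, 6 were lower and 0 were higher, with a median difference of -0.27. Gpt2, an alanine aminotransferase, averaged 10.67 ± 0.107 in NZB and 11.79 ± 0.129 in SM a difference of -1.13 or 2.19-fold (SE 0.084, adjusted p = 3.67e-05). For the glutamate transporter gene Slc1a2 the difference was -0.98 (1.97-fold lower, SE 0.092, adjusted p = 0.00014). The glutamine and alanine carrier gene Slc38a2 differed by -0.80 (SE 0.133, adjusted p = 0.00308) and the arginine and ornithine carrier gene Slc7a2 by -0.67 (SE 0.078, adjusted p = 0.000469).

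Among 10 further genes of phenylalanine, tyrosine and tryptophan breakdown, 2 were lower and 1 was higher. Over all genes 12.6% were lower and 8.47% higher, and over the bright ones 24.8% and 11.99%. The kynurenine aminotransferase genes differed in direction, with Aadat 1.43-fold lower (-0.51, adjusted p = 0.00155), Kyat3 1.25-fold lower (-0.33, adjusted p = 0.0133) and Kyat1 1.76-fold higher in NZB (0.81, adjusted p = 0.000677). The probe set of Kyat1 is of a kind marked for cross-hybridization. So are those of the lower genes Gpt2, Shmt2, Hibch, Foxo1 and Hnf4a in the other lists. The lower genes of this list numbered 1 without SM replicate 2 or NZB replicate 3 and 5 without SM replicate 3, and the higher ones 2 without SM replicate 1. In the same order, 8.30%, 8.13% and 13.3% of all genes were lower, and 7.16% were higher without SM replicate 1.

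Of 18 genes of histidine, glycine, folate-linked carbon units and methionine, 8 were lower and 4 were higher. These counts stand beside 12.6% and 8.47% of all genes and 24.8% and 11.99% of the bright ones. The mitochondrial glycine-side genes Dmgdh (-0.50, SE 0.073), Shmt2 (-0.50, SE 0.082), Sardh (-0.41, SE 0.075) and Dld (-0.37, SE 0.074) led the lower ones (adjusted p = 0.00152 to 0.00729). Csad, which makes hypotaurine from the product of Cdo1, was the most changed, at 9.64, 9.92 and 10.88 in NZB livers and 7.93, 8.50 and 8.75 in SM livers. It was separate between strains and 3.37-fold higher in NZB, with a wide interval of 2.12 to 5.36 (1.75, SE 0.298, adjusted p = 0.00337). Amdhd1, the third step of histidine breakdown, was 1.37-fold higher (0.45, adjusted p = 0.00442), the sulfite oxidase gene Suox 1.33-fold (0.41, adjusted p = 0.0159), and Gnmt, which uses surplus methyl groups, 1.25-fold (0.32, adjusted p = 0.0225). The higher genes numbered 2 without SM replicate 2, NZB replicate 2 or NZB replicate 3, where 4.77%, 5.61% and 4.96% of all genes were higher.

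Of 17 further genes for branched-chain amino acids, lysine, serine and threonine, 4 were lower and 1 was higher. The shares were 12.6% and 8.47% over all genes and 24.8% and 11.99% over the bright ones. Pcca, a subunit of propionyl-CoA carboxylase, averaged 10.22 ± 0.070 in NZB and 11.21 ± 0.254 in SM a difference of -0.99, or 1.99-fold (SE 0.114, adjusted p = 0.000439). The branched-chain transaminase gene Bcat2 was 1.69-fold lower (-0.76, adjusted p = 0.00123), the valine pathway hydrolase gene Hibch 1.53-fold (-0.61, adjusted p = 0.000402) and the lysine pathway dehydrogenase gene Aldh7a1 1.19-fold (-0.25, adjusted p = 0.0405). The valine pathway gene Acad8 was 1.22-fold higher (0.29, adjusted p = 0.0332). With medians aligned, or with SM replicate 2, SM replicate 3, NZB replicate 1 or NZB replicate 3 left out, 0 genes of this list were higher. Over all genes 4.77% to 7.93% were higher in those fits.

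Of 11 regulators known to act on these genes, 6 were lower in NZB and 0 were higher, where 12.6% of all genes and 24.8% of the bright ones were lower. Cebpb, a C/EBP factor induced by fasting hormones, averaged 10.81 ± 0.103 in NZB and 12.16 ± 0.286 in SM a 2.54-fold lower level (difference -1.34, SE 0.128, adjusted p = 0.000144). The coactivator gene Ppargc1a differed by -1.09 (2.12-fold lower, SE 0.159, adjusted p = 0.00155) and the forkhead factor gene Foxo1, restrained by insulin, by -1.03 (2.05-fold lower, SE 0.140, adjusted p = 0.00104). Klf15, a factor required in mice for normal amino acid breakdown, read 10.79, 10.67 and 10.83 in NZB livers, against 11.55, 11.69 and 11.68 in SM livers. The strains were apart by -0.88, or 1.83-fold (SE 0.070, adjusted p = 5.26e-05). The remaining lower regulators were Hnf4a and Cebpa. The glucocorticoid receptor gene Nr3c1 differed by -0.10 (95% interval -0.33 to 0.13) and the glucagon receptor gene Gcgr by 0.14 (95% interval -0.01 to 0.29).

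**Figure D5:**
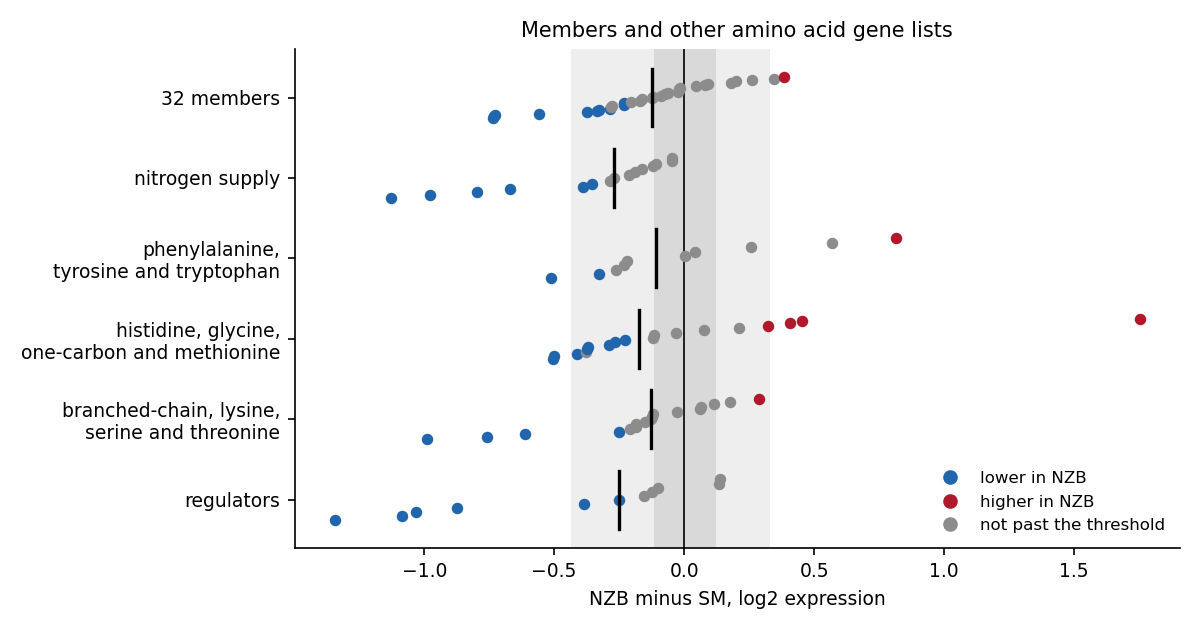
NZB minus SM difference in log2 expression (x axis) for the 32 members and 5 other lists, with a point per gene and a bar at each list's median. The dark band runs from percentile 25 to 75 and the light band from percentile 5 to 95 of all 18193 genes, and the medians of the 6 rows lie left of 0, from -0.27 to -0.11.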

How the data were processed

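The authors deposited 1 table of RMA values on the log2 scale, with a column for each of the 6 mice, which were matched to the labels by sample name (0 unmatched). RMA is named in the submitters' processing notes, without version or settings. The scale was read from the deposited values, whose maximum of 14.9 is above what a 16-bit scanner can give as a natural log (11.1). Gene names came from the platform's annotation, updated by Entrez ID through RefSeq (GRCm38.p6, 34741 of 34945 single-gene probe sets matched). A gene was represented by its probe set with the highest mean. The strain comparison used limma 3.58.1 (R 4.3.3), two-sided, adjusted over all 18193 genes or all 45037 probe sets, and p-values measure only the spread between these mice. In a test on simulated data over 18193 genes, 95 of 100 changes of 1 log2 unit and 25 of 100 of 0.3 were recovered. No other genes were changed there, so its adjusted threshold was stricter than in the data. Precision is limited by having 3 arrays per strain. Members, lists and alternatives were chosen with earlier results of these data known. Array values are given for called members and for those whose probe sets were called in part, and from each other list up to 4 called genes per direction, by size. Markers and other members with array values were named after their values were seen.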

Additional observations from a re-analysis of the deposited data

How the results depend on the processing

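The alternatives were other scalings, the mean of a gene's probe sets, leaving out dim probe sets or those marked for cross-hybridization, trended and robust variances, array weights, the replicate block and leaving out each array. Member genes higher in NZB numbered 3 after quantile normalization and with array weights, where 8.82% and 11.4% of all genes were higher. They numbered 2 with the mean of a gene's probe sets or with marked ones left out (8.62% and 8.26% of all genes). With single arrays left out they numbered 0 to 3, beside 4.77% to 7.93% of all genes. Member genes lower numbered 5 to 12 with single arrays left out, beside 8.13% to 13.3% of all genes. Lower probe sets numbered 6 to 13 and higher probe sets 0 to 4 in the same fits, for which the shares over all probe sets are not given here. The members' median was -0.18 to -0.10 in the same fits. No difference of a called member changed sign. Among members not called, the mean of all probe sets turned Otc (0.063), Slc25a15 (0.076), Hgd (0.024) and Ivd (-0.14), quantile normalization turned Ass1 (0.0076) and Prodh2 (0.029), and array weights turned Prodh2 (0.0057). With single arrays left out, Otc ranged from -0.083 to 0.0061, Ass1 from -0.27 to 0.23, Slc25a15 from -0.069 to 0.014, Glud1 from -0.016 to 0.104, Fah from -0.047 to 0.024, Prodh2 from -0.053 to 0.030 and Gldc from -0.30 to 0.061. The cause was not tested. Equal replicate numbers did not pair mice of the strains (correlations of deviations 0.040, -0.072 and 0.050 for numbers 1, 2 and 3). With the replicate block, 10 members were lower and 1 was higher, beside 11.6% and 7.32% of all genes. The genes called over the whole array were 40.3% higher as deposited, 30.3% with medians aligned and 47.5% after quantile normalization.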

Other observations

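Markers of the liver lobule's zones were called in both directions. Of 5 measured periportal markers outside the pathway, 2 were lower in NZB, Pck1 (-0.41, adjusted p = 0.0193) and Hsd17b13 (-0.36, adjusted p = 0.0115), and 1 was higher, Ctsc (0.84). Of 7 pericentral markers, 1 was lower, Slc1a2, and 1 was higher, the R-spondin receptor gene Lgr5 (0.52, adjusted p = 0.0237). The summed linear level of the periportal markers was 28449 to 31891 in NZB and 29852 to 32949 in SM, and that of the pericentral ones 51392 to 51766 in NZB and 46424 to 52591 in SM. These genes were named after their values were seen.

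The 11 called members lie on 10 chromosomes. Of the 44 genes measured nearest to them in chromosome order, with at most 2 on each side, 9 were lower and 5 were higher in NZB, or 31.8%, beside 21.0% of all genes. The genes next to Kmo on either side were Fh1 (-0.57, adjusted p = 0.000746) and Opn3 (0.15, not past the test), and neither of the genes next to Prodh, Dgcr6 and Rtn4r, passed. Both genes next to Arg1 were lower, Med23 (-0.32, adjusted p = 0.0208) and Akap7 (-0.39, adjusted p = 0.0490). Of the genes next to Asl, Crcp was lower (-0.59, adjusted p = 0.00148) and Gusb did not pass (0.19).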
